A study of Mus musculus with 17 samples.

Results

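The mature B cell genes described here are 9 genes, chosen by name from the gene count table of a mouse lung irradiation series: Ms4a1, Cd79a, Cd79b, Pax5, Ebf1, Cr2, Fcer2a, Bank1 and Cd22. They are 9 of 45777 genes in the table, and all 9 had enough reads to be among the 22052 genes tested. The series asked how the lung transcriptome responds to 65 Gy and to 75 Gy at the inflammation stage (2 weeks) and the fibrosis stage (6 weeks). The mice were wild-type C57BL/6 males, bought at an age of 6 weeks and kept for a further week before the experiment, and the treated ones received a single image-guided dose to the left lung. The libraries used here held poly(A) RNA of lung tissue from non-irradiated mice and from mice given 65 Gy or 75 Gy. At 2 weeks there were 3 libraries in each of the 3 groups. At 6 weeks there were 3 libraries of non-irradiated mice, 2 of 65 Gy and 3 of 75 Gy. The paper lists 3 replicates at 65 Gy and 6 weeks and reports reduced reads for replicate 2. The labels do not say which replicate is absent here. The 17 libraries held 46764569 to 66797879 counts, with a median of 57608149, and the lowest count of any member in any library was 203, for Cr2 in library 3134. The libraries are named here by the numbers in their labels. The beam was aimed at part of the lung, and the material sequenced was bulk tissue. In irradiated mice the paper took RNA from the lesions, so dose and the region sampled cannot be told apart. Fewer B cells, less RNA per B cell and a larger share of RNA from other cells cannot be told apart in any value below. The labels do not say whether each library came from a different animal, so the p-values measure the spread between these libraries.

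B lymphocytes recognise antigen through a surface antibody that signals through a pair of partner proteins, CD79A and CD79B. The transcription factors EBF1 and PAX5 set up and hold the B cell state, and PAX5 is switched off when a B cell becomes an antibody-secreting plasma cell. CD20 (Ms4a1) is a surface protein of B cells, CD21 (Cr2) binds complement fragments and lowers the threshold of the receptor, CD23 (Fcer2a) binds immunoglobulin E, BANK1 is an adaptor of receptor signalling, and CD22 is a sialic acid-binding inhibitor of the receptor. Resting lung holds B cells mainly in blood and in small scattered numbers in the tissue, and chronically inflamed lung can form lymphoid clusters. Ebf1 is also transcribed in stromal cells such as pericytes and adipocytes.

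Sequences upstream of the transcript start are shown for 3 members whose levels were compared with each other below: Cd79a, the reference of the ratios, Bank1, which moved closely with it, and Cd22, whose ratio to Cd79a separated control from irradiated libraries. They are the 250 bases before a RefSeq transcript start in build GRCm38.p6, the build of the count table, and RefSeq windows were matched for 7 of the 9 members (not for Ms4a1 and Cd79b). Capitals mark the letters of 2 motifs searched on both strands, CCCNNGGG (bound by EBF factors) and GAGGAA (bound by PU.1 and Spi-B, here on the reverse strand as TTCCTC). The windows lie at chr7:24897247-24897496 (plus strand), chr3:136326067-136326316 (minus strand) and chr7:30879029-30879278 (minus strand), in that order. The Cd22 window lies inside the annotated gene, which ends at 30880342, and the Bank1 window overlaps its gene, which ends at 136326141. Both thus precede a transcript start inside the gene and not its outermost start.
Cd79a: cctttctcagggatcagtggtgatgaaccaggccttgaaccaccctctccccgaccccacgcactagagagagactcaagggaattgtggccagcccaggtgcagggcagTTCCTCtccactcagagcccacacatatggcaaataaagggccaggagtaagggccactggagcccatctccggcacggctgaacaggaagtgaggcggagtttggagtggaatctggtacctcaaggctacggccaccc
Bank1: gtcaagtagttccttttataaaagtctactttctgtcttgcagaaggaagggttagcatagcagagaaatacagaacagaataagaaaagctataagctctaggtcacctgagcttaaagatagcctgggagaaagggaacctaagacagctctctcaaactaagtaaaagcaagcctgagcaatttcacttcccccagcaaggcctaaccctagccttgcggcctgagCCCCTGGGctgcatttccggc
Cd22: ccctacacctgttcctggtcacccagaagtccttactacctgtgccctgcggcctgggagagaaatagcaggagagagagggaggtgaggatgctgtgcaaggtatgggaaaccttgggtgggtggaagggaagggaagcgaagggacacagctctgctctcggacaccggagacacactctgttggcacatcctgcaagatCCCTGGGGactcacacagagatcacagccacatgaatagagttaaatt
Of the 7 members with a window, 2 held CCCNNGGG (Bank1 and Cd22), 2 held GAGGAA (Cd79a and, in a further window, Ebf1) and 0 held the octamer ATTTGCAT. These counts are per gene, and the 7 members had 10 windows in all. Among all 32851 RefSeq windows of this length the shares, counted per window, were 11.8%, 23.3% and 1.6%. Only exact matches to the letters were counted, so a window without a mark may still hold a site with other letters.

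Before irradiation entered the comparison, the members stood at moderate and unequal levels. Divided by the length of the longest coding transcript of the gene, the median level over the 6 control libraries was 39.7 CPM (read counts scaled to the depth of the library with TMM factors) per kilobase for Cd79a and 33.4 for Cd79b, 12.5 for Ms4a1, 12.2 for Fcer2a and 10.8 for Cd22. Bank1 stood at 6.27, Pax5 at 4.72, Ebf1 at 4.09 and Cr2 at 1.98 CPM per kilobase. The signalling partners of the receptor were thus the most abundant of the 9 transcripts per length and the complement receptor the least, while Ms4a1, Fcer2a and Cd22 had overlapping ranges. In GRCm38.p6, the receptor partner genes lie apart from each other, Cd79a (GeneID 12518) at chr7:24897497-24901858 and Cd79b (GeneID 15985) at chr11:106311341-106314562. The transcription factor genes are Pax5 (GeneID 18507) at chr4:44524748-44710694 and Ebf1 (GeneID 13591) at chr11:44618100-45008096. The surface receptor genes are Cr2 (GeneID 12902) at chr1:195136811-195176880, Fcer2a (GeneID 14128) at chr8:3680280-3694174, Cd22 (GeneID 12483) at chr7:30865404-30880342 and Ms4a1 (GeneID 12482) at chr19:11249679-11266149, and the adaptor gene is Bank1 (GeneID 242248) at chr3:136053363-136326141. The genes Ms4a1, Pax5, Cr2 and Fcer2a overlap other annotated genes (4930526L06Rik for Ms4a1, Trappc5 for Fcer2a), and it is not given in the sources used here whether the counting used strand, so reads of these overlaps may be shared.

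Some libraries stood apart from their groups in these genes. The summed level of the 9 members was 313.1 CPM in control library 3126 and 204 and 239.7 CPM in the other controls of 2 weeks, and it was 584.1 CPM in control library 3135 and 341.1 and 341.2 CPM in the other controls of 6 weeks. At 75 Gy and 2 weeks it was 175.4, 174.6 and, in library 3134, 140.3 CPM. Both high controls also had the highest summed level of 6 neutrophil genes in their groups (568.7 CPM in 3126 and 555.4 CPM in 3135), and the part of neighbouring cell types or blood in the difference was not tested.

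At 2 weeks after 75 Gy, most of the B cell genes were lower than in non-irradiated lung. Transcripts of 6 of the 9 fell (an adjusted p of at most 0.05 in edgeR's quasi-likelihood fit, adjusted by Benjamini-Hochberg over all tested genes), where 10.5% of all tested genes fell and 11.8% rose by this rule. In these 6, every irradiated library lay below every control, which held for 14.8% of all tested genes. The members that fell were Cd79a, Cd79b, Pax5, Ebf1, Cr2 and Bank1, and Ms4a1, Fcer2a and Cd22 did not pass. When the other groups were left out of the model, 2 of the 9 passed. Over all genes 1150 passed in that fit, against 4922 with all groups. Counting as DEGs the genes that also changed at least 2-fold (an absolute log2 fold change of 1 or more), Cr2 and Bank1 were DEGs, 2 of 9, against 2.07% of all tested genes called lower. The median log2 fold change of the 9 was -0.83, and that of all tested genes was 0.00.

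**Figure D1:**
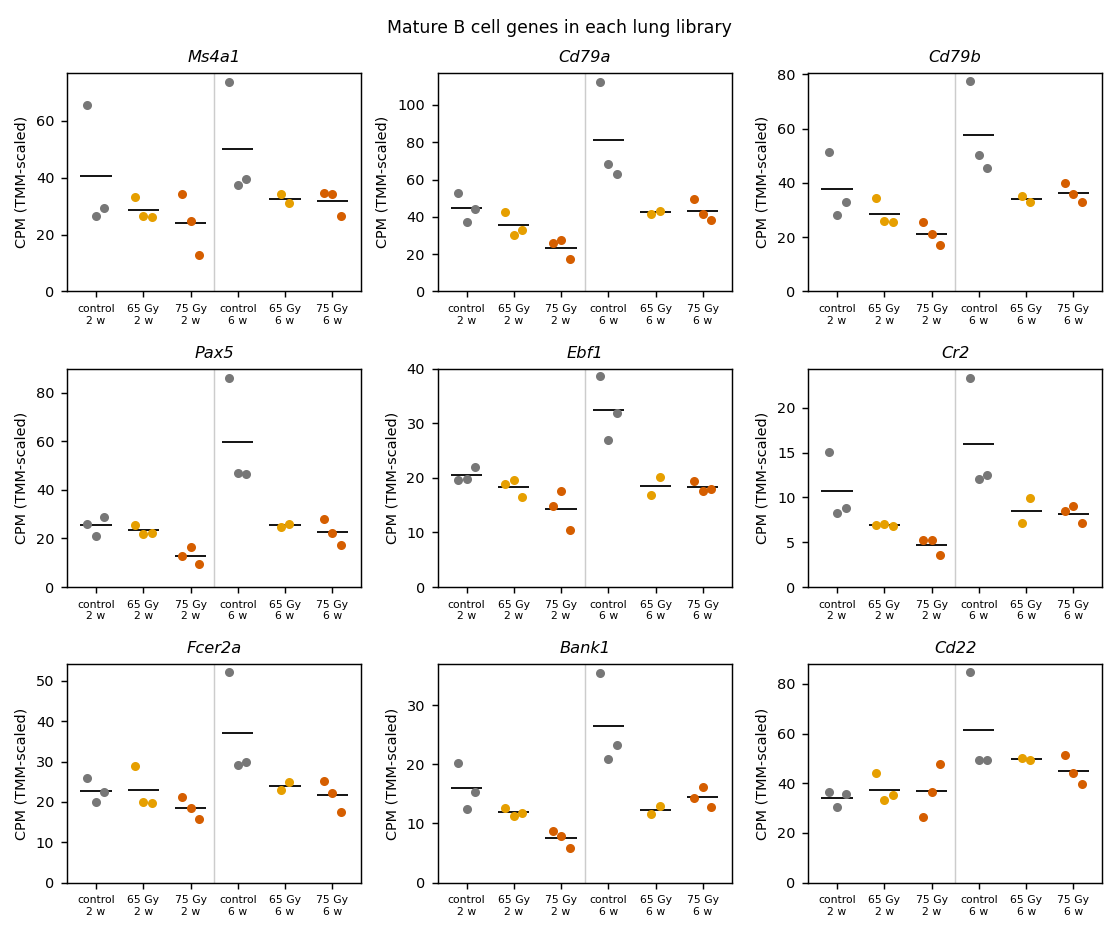
Levels of the 9 mature B cell genes in each of the 17 libraries, as TMM-scaled CPM on linear axes that start at 0, with a point for each library, in order of library number within a group, and a line at each group mean. Control library 3135 is the highest point of every panel, and at 6 weeks the irradiated libraries lie below the controls for every gene except Cd22.

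Cd79a, the alpha partner of the antigen receptor, stood at 52.8, 37.2 and 44.3 CPM in the controls of 2 weeks and at 25.8, 27.4 and 17.2 CPM after 75 Gy. The groups did not overlap, with library 3134 the lowest. Its log2 fold change was -0.93 (SE 0.22, adjusted p = 0.00773 by edgeR), a level 1.91-fold lower. Cd79b, the beta partner, fell with it by 0.83 on the log2 scale (SE 0.23, adjusted p = 0.0181 by edgeR), from 28.4 to 51.4 CPM in controls to 17.02 to 25.5 CPM. The fall of Cd79b did not pass without library 3126 or without library 3134, whereas that of Cd79a passed whichever library was left out.

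Pax5, the factor that maintains B cell identity, stood at 26.1, 21.0 and 29.0 CPM in the controls of 2 weeks and at 12.7, 16.5 and 9.32 CPM after 75 Gy. Its log2 fold change was -0.98 (SE 0.25, adjusted p = 0.0103 by edgeR), and every irradiated library lay below every control. Without library 3134 the adjusted p was 0.0508. Ebf1, its partner factor, had a value of -0.52 on the log2 scale (SE 0.16, adjusted p = 0.0341 by edgeR), and this fall was lost when library 3127, 3128, 3132 or 3134 was left out.

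Cr2, the complement receptor CD21, stood at 15.1, 8.27 and 8.81 CPM in the controls of 2 weeks and at 5.29, 5.26 and 3.57 CPM after 75 Gy. Its log2 fold change of -1.19 (SE 0.27, adjusted p = 0.00593 by edgeR) was the most negative of the 9 and became -0.85 without control library 3126, the highest of the controls. Bank1, the receptor adaptor, stood at 20.1, 12.4 and 15.2 CPM in controls and at 8.79, 7.80 and 5.84 CPM after 75 Gy. Its groups did not overlap, and its log2 fold change was -1.09 (SE 0.21, adjusted p = 0.00205 by edgeR), or 2.13-fold lower.

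The other members did not pass at 2 weeks. Ms4a1, the CD20 gene, stood at 65.8, 26.6 and 29.4 CPM in controls and at 34.3, 24.8 and 13.0 CPM after 75 Gy, so that the groups overlapped. Its log2 fold change of -0.76 (SE 0.36, adjusted p = 0.151 by edgeR) went to -0.21 when library 3126 was left out. Fcer2a, the low-affinity immunoglobulin E receptor CD23, stood at 25.9, 19.9 and 22.4 CPM in controls and at 21.2, 18.6 and 15.9 CPM after 75 Gy, with overlap, and had a value of -0.29 on the log2 scale (SE 0.22, adjusted p = 0.379 by edgeR). Cd22 was the exception in sign, at 36.4, 30.4 and 35.7 CPM in controls and 26.2, 36.4 and 47.9 CPM after 75 Gy. Its highest value of these was in library 3134, where every other member was lowest.

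Libraries 3126, 3134 and 3135 were left out together in a comparison chosen after the values were seen. In it 4 members fell at 75 Gy and 2 weeks and 0 were DEGs. Of the 9 values 8 were below 0, with a median log2 fold change of -0.40. Over all genes 4962 passed and 1278 were DEGs in that fit, against 4922 and 1707 with all libraries. The number of DEGs among the members was also 0 without 3126 alone and 4 without 3127 or without 3133. Which members passed the 2-fold limit at 2 weeks thus rested on few libraries, while 8 or 9 of the 9 lay below 0 in each fit that left out 1 library.

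At 6 weeks after 75 Gy, the fibrosis stage, each of the 9 genes had a lower mean than in non-irradiated lung. Transcripts of 7 of the 9 fell (adjusted p of at most 0.05 by edgeR), where 18% of all tested genes fell and 18% rose, and 1 of 9, Pax5, was a DEG, where 3.13% of tested genes were called lower. The genes that did not pass were Ms4a1 and Cd22. For 8 of the 9, every irradiated library lay below every control, where 27.7% of all tested genes were separated in this direction. The median log2 fold change of the 9 was -0.82, against 0.04 over all tested genes.

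Pax5 had the most negative value at this stage. It stood at 86.1, 47.1 and 46.6 CPM in the controls of 6 weeks and at 28.0, 22.4 and 17.5 CPM after 75 Gy. The lowest control was well above the highest irradiated library, and the log2 fold change was -1.41 (SE 0.25, adjusted p = 0.00063 by edgeR), or 2.65-fold lower. Without control library 3135 it was -1.05 (adjusted p = 0.0031 by edgeR). Ebf1 stood at 38.6, 27.0 and 31.8 CPM in controls and at 19.4, 17.6 and 18.0 CPM after 75 Gy, and fell by 0.82 (SE 0.16, adjusted p = 0.00148 by edgeR). Since Ebf1 is also a stromal gene, the pericyte markers bear on it: at 6 weeks 2 of 8 fell and 1 rose after 75 Gy, their summed level was 480 to 538.4 CPM in controls and 302.3 to 379.9 CPM in the 75 Gy libraries, and their part in the fall of Ebf1 was not tested.

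The receptor genes had similar ratios at this stage. Cd79a stood at 112.2, 68.2 and 62.8 CPM in controls and at 49.6, 41.6 and 38.4 CPM after 75 Gy (log2 fold change -0.91, SE 0.22, adjusted p = 0.00554 by edgeR). Bank1 stood at 35.4, 20.8 and 23.2 CPM in controls and at 14.3, 16.1 and 12.8 CPM after 75 Gy, which gave a log2 ratio of -0.88 (SE 0.21, adjusted p = 0.00447 by edgeR). Cd79b fell by 0.67 (adjusted p = 0.0333), Cr2 by 0.96 (adjusted p = 0.0114) and Fcer2a by 0.78 (adjusted p = 0.013), all on the log2 scale by the same edgeR fit. The falls of Cd79b, Cr2 and Fcer2a did not pass without control library 3135, nor without library 3143. That of Cd79b also did not pass without library 3138, 3140 or 3142. Ms4a1 stood at 73.8, 37.4 and 39.4 CPM in controls and at 34.7, 34.2 and 26.7 CPM after 75 Gy, which did not overlap, but its value of -0.66 on the log2 scale (SE 0.36, adjusted p = 0.17 by edgeR) did not pass. Without libraries 3126, 3134 and 3135 together, 6 of the 9 fell at 75 Gy and 6 weeks and 1, Pax5, was a DEG. All 9 values were below 0, with a median of -0.58. Over all genes 8328 passed and 2265 were DEGs in that fit, against 7935 and 2297 with all libraries.

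**Figure D2:**
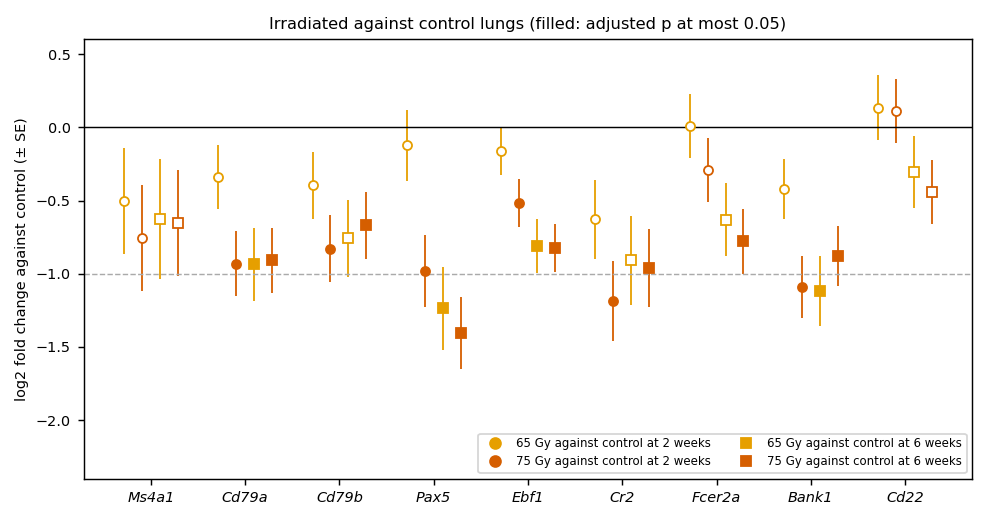
Log2 fold changes against the controls of the same week for the 9 genes, with bars of 1 SE from the edgeR fit; circles are 2 weeks, squares 6 weeks, light orange 65 Gy and dark orange 75 Gy, filled where the adjusted p was at most 0.05, and the dashed line marks a 2-fold lower level. At 2 weeks only 75 Gy gave filled points, and at 6 weeks the points of both doses lie close together.

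After 65 Gy the members were near the controls at 2 weeks and below them at 6 weeks. At 2 weeks after 65 Gy, 0 of 9 members passed by edgeR (DESeq2 called 0), where 4.29% of all tested genes fell, 6.7% rose and 0.88% were called lower. An unadjusted p under 0.05 by edgeR was held by 1 of 9 members, against 25.4% of all tested genes. Values were below 0 in 7 of 9, with a median log2 fold change of -0.34. Cd79a stood at 42.8, 30.3 and 33.0 CPM there, which overlaps the controls. Ebf1 and Cr2, 2 of 9, were lower in every 65 Gy library than in every control of 2 weeks, where 13.5% of all tested genes were. Pax5 stood close to its controls, at 25.8, 21.9 and 22.3 CPM (log2 fold change -0.12, SE 0.24). Without libraries 3126, 3134 and 3135 the median of the 9 was -0.10, with 6 of 9 below 0.

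At 6 weeks after 65 Gy, 4 of 9 members fell (7.01% of all tested genes fell and 7.66% rose), and 2 of 9, Pax5 and Bank1, were DEGs, where 0.943% of tested genes were called lower. In 8 of 9 both libraries lay below every control, where 28.1% of all tested genes did. Pax5 stood at 24.8 and 26.1 CPM in the 2 libraries (log2 fold change -1.24, SE 0.28, adjusted p = 0.00993 by edgeR). Bank1 stood at 11.5 and 12.9 CPM (log2 fold change -1.12, SE 0.24, adjusted p = 0.00689 by edgeR). Cd79a, at 41.8 and 42.9 CPM, and Ebf1, at 16.9 and 20.2 CPM, were the others that fell. With 2 libraries the group was fragile, since leaving out 1 of them left 1 library. The median log2 fold change of the 9 was -0.69 without library 3138 and -0.93 without library 3140. Without control library 3135, 0 members were DEGs. Without libraries 3126, 3134 and 3135 together, 6 members passed and 0 were DEGs, with a median of -0.53. Over all genes 4294 passed and 1283 were DEGs in that fit, against 3234 and 1164 with all libraries. The same non-irradiated libraries served as controls of both doses at each stage, so the 2 doses are not independent of each other.

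**Figure D3:**
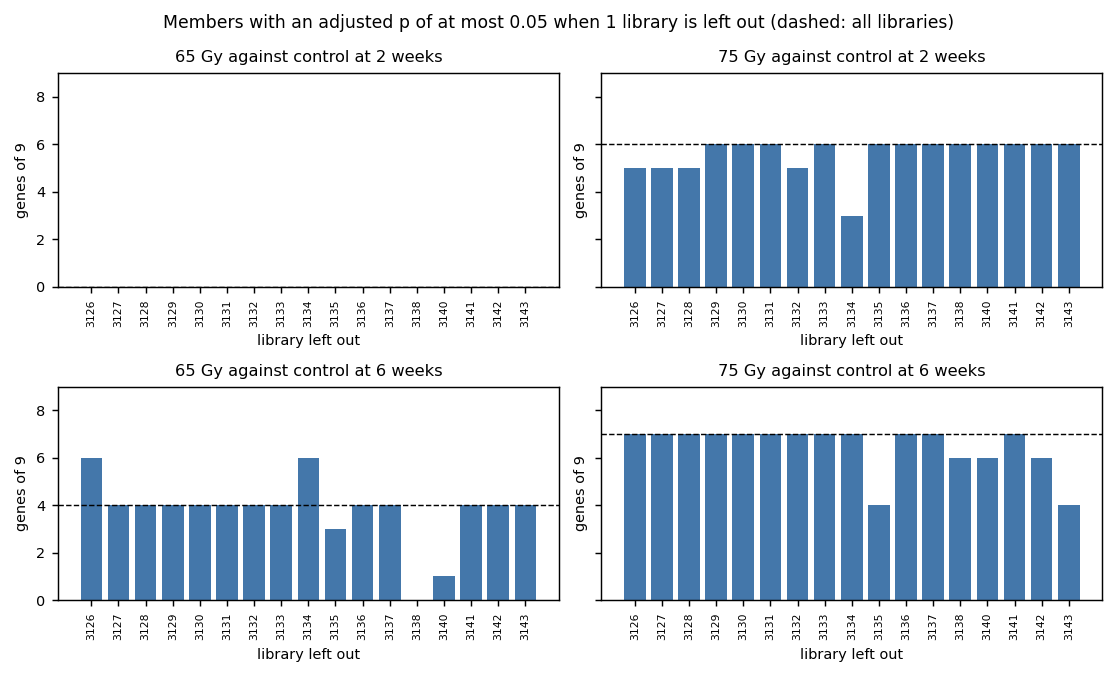
Number of the 9 genes with an adjusted p of at most 0.05 when each of the 17 libraries was left out in turn, for the 4 comparisons with controls, with a dashed line at the number with all libraries. The 75 Gy bars span 3 to 6 at 2 weeks and 4 to 7 at 6 weeks, and the 65 Gy bars span 0 to 6 at 6 weeks and are all 0 at 2 weeks.

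Set against each other, the doses did not give a called difference. At 2 weeks all 9 members were lower at 75 Gy than at 65 Gy, with a median log2 difference of -0.43. Of the 9, 4 had an unadjusted p under 0.05 by edgeR, against 7.12% of all tested genes. However, 0 passed by edgeR and 0 by DESeq2, as 0% of all tested genes were called in the edgeR comparison. The Pax5 difference was -0.86 (SE 0.25, unadjusted p = 0.00328, adjusted p = 0.693 by edgeR), and the 75 Gy libraries lay below the 65 Gy libraries for 4 of 9 members (Cd79a, Pax5, Cr2 and Bank1), where 5.95% of all tested genes did. Without library 3134 the median difference was -0.30. At 6 weeks the median difference was -0.03, and 0 of 9 had an unadjusted p under 0.05 by edgeR, against 6.49% of all tested genes. By edgeR or DESeq2 0 of 9 passed, where 0% of all tested genes were called by edgeR. The interval of 2 SE around the 6-week difference ran from -0.46 to 0.52 for Cd79a and from -0.71 to 0.37 for Pax5, on the log2 scale.

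The controls themselves were not at the same level at both stages. In non-irradiated lung all 9 members were higher at 6 weeks than at 2 weeks, with a median log2 difference of 0.71 against 0.01 over all tested genes, and 1 of 9, Pax5, was called (0.24% of all tested genes were called higher and 0.612% rose). For 6 of 9 every control of 6 weeks lay above every control of 2 weeks, where 12.4% of all tested genes did. Pax5 rose by 1.24 on the log2 scale (SE 0.25, adjusted p = 0.022 by edgeR), and this was lost without library 3126, 3127 or 3135. The median difference was 0.47 without library 3135 and 0.58 without libraries 3126, 3134 and 3135. The 2 stages differ in the age of the mice, and the labels give no sequencing date, so age and any difference in handling cannot be told apart. In the 75 Gy group 4 of 9 members, Cd79a, Cd79b, Pax5 and Bank1, rose from 2 to 6 weeks, where 5.06% of all tested genes rose, and 0 of 9 passed the 2-fold limit by edgeR or DESeq2, where 2.32% of tested genes were called higher. The number that rose was 0 without library 3142, 1 without 3134, 3141 or 3143, 2 without 3130, 3131, 3138 or 3140, and 0 when the other groups were left out of the model. Over all genes, higher or lower, 2387 passed in the full fit, 897 without library 3142 and 224 when the other groups were left out. In the 65 Gy group 0 of 9 passed by edgeR (DESeq2 called 0), where 0.317% of tested genes rose and 0.254% were called higher. An unadjusted p under 0.05 by edgeR was held by 0 of 9, against 12.7% of all tested genes.

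Levels can also be read across the stages. Cd79a stood at 38.4 to 49.6 CPM in the 75 Gy libraries of 6 weeks and at 37.2 to 52.8 CPM in the controls of 2 weeks. Ebf1 stood at 17.6 to 19.4 CPM in the former and at 19.6 to 21.9 CPM in the latter, with no overlap. The effect of 75 Gy did not differ detectably between the stages for any member. In the interaction term 0 of 9 had an unadjusted p under 0.05 by edgeR, against 16.1% of all tested genes. By edgeR or DESeq2 0 passed, and the median was 0.02, where 0.254% of all tested genes were called by edgeR. For 65 Gy all 9 interaction values were below 0 with a median of -0.60. Of the 9, 3 (Pax5, Ebf1 and Bank1) had an unadjusted p under 0.05 by edgeR, against 8.65% of all tested genes. By edgeR or DESeq2 0 passed, where 0.0136% of all tested genes were called by edgeR. The Pax5 value was -1.11 (SE 0.37, adjusted p = 0.455 by edgeR). The median of the 65 Gy interaction values was -0.29 without control library 3135 and -0.41 without libraries 3126, 3134 and 3135.

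Cd22 overlapped its controls at both stages and both doses. At 6 weeks it stood at 85.0, 49.3 and 49.5 CPM in controls, at 49.97 and 49.23 CPM after 65 Gy and at 51.5, 44.3 and 39.6 CPM after 75 Gy, so that the groups overlapped in every comparison with controls. Its log2 fold changes were 0.11, 0.13, -0.44 and -0.31 for 75 Gy and 65 Gy at 2 weeks and 75 Gy and 65 Gy at 6 weeks, with adjusted p from 0.13 to 0.766 by edgeR. Dividing by Cd79a in the same library, which removes the scaling between libraries, gave 0.689 to 0.816 Cd22 counts per Cd79a count in the 6 controls and 1.02 to 2.79 in the 11 irradiated libraries, with no overlap. Library 3134 held the 2.79, and the other 10 irradiated libraries reached 1.33 at most. With both weeks pooled, the same ratio of the other 7 members overlapped between control and irradiated libraries. At 6 weeks alone, Pax5 per Cd79a was 0.691 to 0.767 in controls and 0.454 to 0.608 in irradiated libraries. Ms4a1 went the other way, at 0.549 to 0.658 and 0.694 to 0.823, as did Cd79b, at 0.69 to 0.736 and 0.769 to 0.861. At 2 weeks alone, Fcer2a was at 0.49 to 0.535 and 0.594 to 0.923. These ratios were looked at after the values were seen. Over both weeks, 9.9% of 22048 tested genes had a ratio to Cd79a that was higher in every irradiated library than in every control. The share within a week was not computed.

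**Figure D4:**
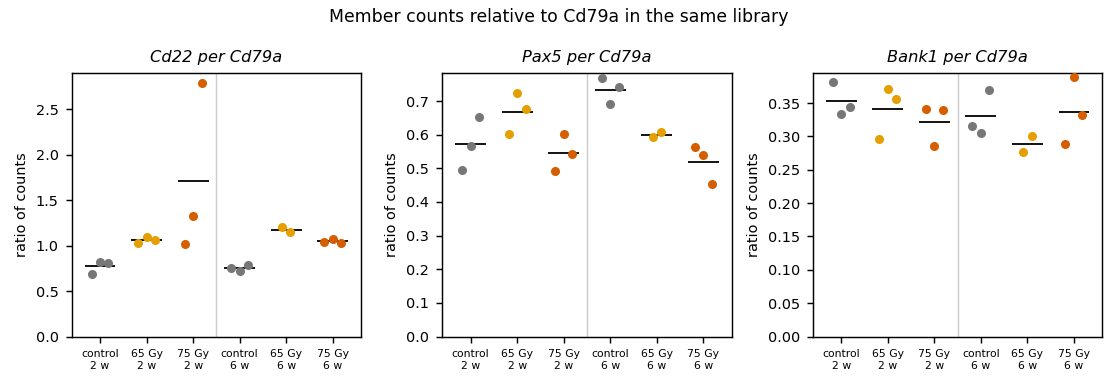
Counts of Cd22, Pax5 and Bank1 divided by the count of Cd79a in the same library, for the 6 groups on linear axes from 0, with a line at each group mean. For Cd22 the 11 irradiated libraries lie from 1.02 to 2.79, above the 6 controls at 0.689 to 0.816. The Pax5 and Bank1 ratios of irradiated and control libraries overlap when both weeks are pooled. At 6 weeks alone the Pax5 ratios do not overlap, with controls at 0.691 to 0.767 and irradiated libraries at 0.454 to 0.608.

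Among themselves the members rose and fell together over the 17 libraries. Pearson's r of log2 CPM between pairs of members had a median of 0.885 and ran from 0.377, between Cd22 and Ms4a1, to 0.973, between Cd79a and Cd79b. After the group means were taken away, the median r was 0.765 over the 36 pairs, so libraries of the same group also differed in the members together. These are descriptions over libraries that share groups, scaling and the high controls. Among the genes with the most similar pattern to the members' mean were Fcrl1 (r = 0.981), Siglecg and Blk (both r = 0.978) and Fcmr (r = 0.966), over 17 libraries. The nearest genes to Cd79a were Blk, Srpk3 and Siglecg, those to Pax5 included Blk and Siglecg, and those to Bank1 included Ighd and Fcrl1. For Ebf1 they were Ralgps2, Cers4 and Fcmr, and for Cd22 Cd37, Grap2 and Fam169b.

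Other genes of the mature B cell were taken from lists. The counts of every list below are to be read against the shares of all tested genes given above, which at 75 Gy were 11.8% risen and 10.5% fallen at 2 weeks and 18% each at 6 weeks, and at 65 Gy 6.7% and 4.29% at 2 weeks and 7.66% and 7.01% at 6 weeks. Of 16 further mature B cell genes, 7 fell after 75 Gy at 2 weeks (median log2 fold change -0.27), and 6 fell after 75 Gy at 6 weeks (median -0.55). At 65 Gy 1 fell at 2 weeks and 6 fell at 6 weeks. Fcmr, the receptor for immunoglobulin M, fell by 1.03 and 1.12 on the log2 scale after 75 Gy at 2 and 6 weeks (adjusted p = 0.00703 and 0.00251 by edgeR). Cxcr5, the receptor that guides B cells into follicles, fell by 1.22 at 2 weeks (adjusted p = 0.00754) and had a value of -0.56 at 6 weeks (adjusted p = 0.139), and Bcl11a, a lymphoid transcription factor, fell by 1.11 at 6 weeks (adjusted p = 0.00187).

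Genes of signalling inside the cell gave values of both signs. Of 18 genes of receptor signalling, 9 rose and 3 fell at 75 Gy and 2 weeks (median 0.53). At 6 weeks 3 rose and 3 fell at either dose, which at 75 Gy is near the share of all tested genes. Among those that fell at 2 weeks, Blk and Siglecg are largely restricted to B cells, while many of the others are also used by myeloid cells. Fcgr2b, an inhibitory antibody receptor of B cells and macrophages, rose by 2.14 at 2 weeks (SE 0.39, adjusted p = 0.00142 by edgeR) and 2.05 at 6 weeks (adjusted p = 0.00108). Cd72, an inhibitory co-receptor also found on macrophages, rose by 1.13 at 2 weeks (adjusted p = 0.00691). The 4 macrophage markers had 3 genes higher after 75 Gy at 2 weeks, with a summed level of 84.1 to 114.6 CPM in controls and 366.9 to 614.5 CPM, and the part of macrophages in these values was not tested.

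Survival factors of B cells gave values of both signs. Of 5 BAFF and APRIL ligands and receptors, 1 fell after 75 Gy at 2 weeks, and 2 rose and 1 fell after 75 Gy at 6 weeks. The BAFF receptor gene Tnfrsf13c fell by 0.96 at 75 Gy and 2 weeks (adjusted p = 0.0223) and by 0.91 at 6 weeks (adjusted p = 0.0188), and the BAFF gene Tnfsf13b rose by 0.31 at 75 Gy and 6 weeks (SE 0.10, adjusted p = 0.0258 by edgeR). The fall of Tnfrsf13c did not pass without library 3128 or 3134 at 2 weeks, nor without 3135, 3142 or 3143 at 6 weeks, and the rise of Tnfsf13b did not pass without 3135, 3137 or 3142. Tnfsf13b stood at 16.6 to 20.6 CPM in the controls of 6 weeks and 22.0 to 23.6 CPM after 75 Gy. Tnfrsf17, the BCMA receptor of plasma cells and named after its values were seen, stood at 0.243 to 0.499 CPM in those controls and 0.655 to 1.79 CPM after 75 Gy, and its log2 fold change of 1.75 (SE 0.76, adjusted p = 0.0852 by edgeR) did not pass.

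Antibody genes split by type. Ighd, the immunoglobulin D heavy chain of resting B cells, stood at 36.7, 30.8 and 33.5 CPM in the controls of 2 weeks, 25.6, 21.5 and 24.7 CPM after 65 Gy and 16.8, 14.5 and 10.2 CPM after 75 Gy. It fell by 1.28 at 75 Gy and 2 weeks (SE 0.22, adjusted p = 0.00104 by edgeR), by 0.98 at 75 Gy and 6 weeks (adjusted p = 0.00336) and by 1.01 at 65 Gy and 6 weeks (adjusted p = 0.0159). Ighg1, an immunoglobulin G heavy chain of switched cells, went the other way, from 0.143 to 0.838 CPM in the controls of 6 weeks to 57.5, 63.5 and 127.1 CPM after 75 Gy and 23.3 and 11.4 CPM after 65 Gy. Reads of Ighg1 may be shared with its near-identical gene copies. Jchain, which links antibody units in secreted immunoglobulin, stood at 64.7, 27.1 and 20.0 CPM in the controls of 6 weeks and at 531.9, 445.7 and 1221 CPM after 75 Gy (log2 fold change 4.30, SE 0.66, adjusted p = 0.000255 by edgeR).

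**Figure D5:**
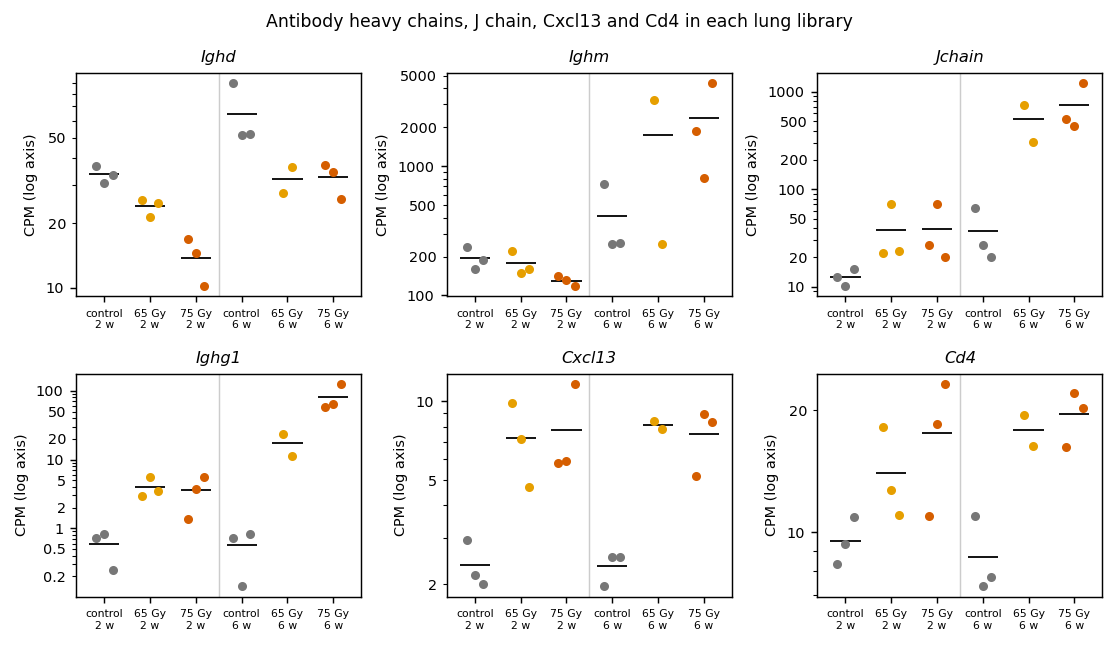
TMM-scaled CPM on log axes of Ighd, Ighm, Jchain, Ighg1, Cxcl13 and Cd4 in each of the 17 libraries, with a line at each group mean. Ighd is lower in every irradiated library than in the controls of the same week, while Jchain and Ighg1 are highest in the 5 irradiated libraries of 6 weeks and Ighm varies from 249 to 4369 CPM among those 5.

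Ighm, the heavy chain of immunoglobulin M that both resting and secreting cells transcribe, varied widely between libraries of the same group. It stood at 730.2, 248.3 and 252.8 CPM in the controls of 6 weeks, 3231 and 249 CPM after 65 Gy and 1878, 816.4 and 4369 CPM after 75 Gy. It rose by 2.52 on the log2 scale at 75 Gy and 6 weeks (SE 0.72, adjusted p = 0.0138 by edgeR), which was lost without library 3136, 3137 or 3143. Of 9 plasma cell genes, 7 rose at 75 Gy and 6 weeks (median 0.94), and 3 rose at 65 Gy. At 2 weeks 2 of the 9 rose at each dose. Mzb1, a chaperone of antibody assembly, rose by 1.15 at 75 Gy and 6 weeks (adjusted p = 0.00855 by edgeR), which was lost without library 3143.

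Genes of germinal centres and precursors gave mixed values. Of 9 germinal centre genes, 3 rose and 2 fell at 75 Gy and 6 weeks. Mybl1, a transcription factor of the MYB family, rose by 1.81 at 75 Gy and 2 weeks (adjusted p = 4.27e-06 by edgeR) and by 1.85 at 65 Gy (adjusted p = 6.11e-06), and Gcsam, a regulator of lymphocyte signalling, rose by 1.64 at 75 Gy and 6 weeks (adjusted p = 1.77e-05). Nuggc, a nuclear GTPase, rose by 2.02 at 75 Gy and 6 weeks (SE 0.73, adjusted p = 0.0412 by edgeR), from at most 0.214 CPM in controls to 0.637 to 1.10 CPM. This rise was lost when library 3130, 3131, 3135, 3136, 3137, 3141, 3142 or 3143 was left out, with an adjusted p of up to 0.124 by edgeR. Of 7 B cell precursor genes, 5 were tested and 1, Il7r, rose at 75 Gy at both stages (1.01 and 1.10, adjusted p = 0.0213 and 0.00851 by edgeR). Il7r, the interleukin 7 receptor, is also made by T cells, and its rise at 2 weeks was lost without library 3127, 3128 or 3134.

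Markers of other cells moved with the B cell genes or against them, and their part in the values above was not tested. Of 8 T cell markers, 4 rose at 75 Gy and 2 weeks (median 0.78), and 3 rose at 75 Gy and 6 weeks. Cd4 and Cd3g, named after the values were seen, rose at 75 Gy and 6 weeks by 1.17 and 1.04 (adjusted p = 0.00262 and 0.00294 by edgeR). Of 6 neutrophil markers, a list added after the values were seen, 3 fell at 75 Gy and 2 weeks and 2 at 6 weeks, with summed levels of 265.6 to 568.7 and 283.3 to 555.4 CPM in controls and 83.0 to 204.7 and 185.5 to 265 CPM after 75 Gy. Of 6 erythroid markers, likewise added, the median log2 fold change was -0.03 at 75 Gy and 2 weeks and -0.965 at 6 weeks, where 4 fell. Their summed level at 2 weeks was 3913 to 4053 CPM in controls and 1602 to 6905 CPM after 75 Gy. At 6 weeks it was 2979 to 3746 CPM in controls and 1442 to 2216 CPM after 75 Gy.

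Markers of stromal and lining cells were measured as well. Of 8 pericyte markers 4 fell at 75 Gy and 2 weeks, of 6 fibroblast markers 3 fell, of 6 adipocyte markers 1 fell, and of 6 markers of lung epithelium and endothelium 3 fell. At 75 Gy and 6 weeks these counts were 2, 1, 0 and 3, with 1 riser each among pericyte, fibroblast and adipocyte markers. The adipocyte markers had a median log2 fold change of -2.79 at 75 Gy and 2 weeks and 0.64 at 6 weeks. Their summed level was 39.4 to 51.4 CPM in the controls of 2 weeks and 22.7 to 35.7 CPM after 75 Gy, and their part in the fall of Ebf1, which adipocytes also transcribe, was not tested. Of 5 plasmacytoid dendritic cell markers, 1 rose at 75 Gy at each stage. The markers of lung epithelium and endothelium summed to 18140 to 39250 CPM over all libraries, so the labelled tissue carried its defining transcripts.

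Markers of lymphoid stroma gave values of both signs. Of 4 follicular dendritic cell markers in the file, 2 rose and 1 fell after 75 Gy at the inflammation stage and 3 rose at the fibrosis stage. Of 5 markers of lymph node stroma and high endothelial venules, 1 rose and another fell at the inflammation stage, and 3 rose and 1 fell at the fibrosis stage. The summed level of this second list was lower after 75 Gy at 6 weeks, at 48 to 55.05 CPM against 63.7 to 78.9 CPM in controls. Cxcl13, the follicle chemokine that attracts B cells, stood at 1.96 to 2.55 CPM in the controls of 6 weeks and 5.18 to 8.95 CPM after 75 Gy, and rose by 1.67 (SE 0.31, adjusted p = 0.000979 by edgeR). At 2 weeks it had risen by 1.72 (adjusted p = 0.00147). Glycam1, a ligand of lymphocyte homing in high endothelial venules, had 0 counts in all 12 other libraries and stood at 0.492 to 2.11 CPM in the 5 irradiated libraries of 6 weeks. Madcam1, another homing ligand, stood at 0.18 to 0.46 CPM in those 5 and at 0 in the controls of 6 weeks. Cxcl13, Madcam1 and Glycam1 were named after their values were seen.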

How the data were processed

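Lung poly(A) RNA libraries were prepared by the authors with a stranded kit, trimmed with Trimmomatic, aligned with HISAT2 and counted with StringTie on build GRCm38.p6, and the deposited values are raw counts per gene. Counts were scaled by TMM and tested in R 4.3.3 with edgeR 4.0.16 (quasi-likelihood F test, all 17 libraries in 1 fit with a coefficient for each of 6 groups, no covariate, low genes removed by filterByExpr at 10 counts and 15 in total, Benjamini-Hochberg over 22052 genes) in 11 comparisons. A gene "rose" or "fell" at an adjusted p of at most 0.05, and was a DEG at an absolute log2 fold change of 1 or more as well. The script was tested on simulated data. Alternatives were DESeq2 1.42.0, its size factors, no filter, a fit of the compared groups, no fold limit and each library left out. The members and lists were chosen with earlier results of these data known. From each list of B-lineage genes the text names up to 3 genes called against controls, by number of calls and then p, and the further genes Tnfsf13b, Tnfrsf13c, Ighm and Ighd. Some genes that this rule names are not reported here. Every library held at least 46764569 counts.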

Additional observations from a re-analysis of the deposited data

Results flagged for a closer look

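The effect of 75 Gy on Ighg1 differed between the stages. Its log2 fold change against controls was 2.60 at 2 weeks and 7.18 at 6 weeks, and the difference of 4.58 passed as an interaction term (SE 0.89, adjusted p = 0.0436 by edgeR), with every 75 Gy library of 6 weeks above every one of 2 weeks. No member met the criteria for a closer look, which include a test for outlying samples only in groups of 4 or more, a size no group here reached.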

How the results depend on the processing

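No paired analysis was possible because the labels give no pairing of libraries. No called value changed sign under any alternative. With no fold-change limit the members called were 6 at 75 Gy and 2 weeks, 7 at 75 Gy and 6 weeks, 4 at 65 Gy and 6 weeks and 4 for 75 Gy at 6 against 2 weeks. A fit of only the groups compared called 1 member at 75 Gy and 2 weeks and 0 for the controls at 6 against 2 weeks. In that fit the members with an adjusted p of at most 0.05 were 2 (6 with all groups) at 75 Gy and 2 weeks and 0 (4 with all groups) for 75 Gy at 6 against 2 weeks. Over all genes 1150 (4922 with all groups) and 224 (2387 with all groups) passed, in that order. The fit without libraries 3126, 3134 and 3135 was added after the data were seen. In it 0 members were called in each of 75 Gy at 2 weeks, 65 Gy at 6 weeks and the controls at 6 against 2 weeks. Over all genes 1278, 1283 and 55 were called there, against 1707, 1164 and 127 with all libraries, in that order. Leaving out 1 library at a time gave 0 to 4 called members for 75 Gy at 2 weeks, 1 to 4 for 75 Gy at 6 weeks, 0 to 3 for 65 Gy at 6 weeks, 0 to 1 for the controls at 6 against 2 weeks and 0 to 2 for 75 Gy at 6 against 2 weeks, and 0 in the other comparisons. The cause of these changes was not tested, beyond the smaller number of libraries. DESeq2 size factors moved no member's CPM by more than 1.49%.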
